A study of Mus musculus with 20 samples.

Results

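The 38 Hox genes examined here lie in 4 clusters, Hoxa on chromosome 6, Hoxb on chromosome 11, Hoxc on chromosome 15 and Hoxd on chromosome 2, and were taken by gene name. They were 38 of 21829 protein-coding genes of GENCODE M21. Each cluster was read as a window from 10 kb before its first member gene to 10 kb past its last, in mm10 coordinates. The windows were chr6:52152417-52270880 with 10 members, chr11:96184316-96378256 with 10, chr15:102911103-103046852 with 9 and chr2:74658310-74775142 with 9. They held 701 of the 709410 peaks in 18 peak lists, and 7 of 32120 consensus ATAC regions carried the symbol of a member.

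Cells descended from Nkx2.1-expressing progenitors and marked by GFP were sorted from pup neocortex at postnatal day 7 or 8. WT animals carried Nkx2.1-Cre and the Ai3 reporter, and Tcf4 cKO animals were Tcf4 f/f; Nkx2.1-Cre with the same reporter, so that the driver and the reporter were shared and only the conditional Tcf4 alleles differed. Tcf4 was lost in cells in which Nkx2.1-Cre had been active and in their progeny. From single-cell data the paper reports that this sorted lineage held fewer oligodendrocyte lineage cells and more astrocyte precursors in Tcf4 cKO. Each library here pools the sorted cells. Whether a difference between the genotypes arose within cells or from their make-up was not tested. ATAC-seq and Cut&Tag for H3K27me3, H3K27ac and H3K4me1 were each done on 2 WT and 2 Tcf4 cKO libraries, and Tcf4 occupancy on 2 libraries from Tcf4-tag mice, whose own Tcf4 protein gains a C-terminal Flag/HA tag where Nkx2.1-Cre is active. The labels do not tie a library to an animal or a litter, so a p-value measures the spread between these libraries, which may be technical.

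Hox genes encode homeodomain transcription factors that set position along the head-to-tail axis, and within a cluster their order on the chromosome follows the order of their domains in the body. Low paralog numbers act in the hindbrain and high ones in the lumbar, sacral and tail regions and in the limbs, whereas the forebrain lies in front of the Hox domain. The clusters are the textbook target of Polycomb repression: the complex PRC2 methylates lysine 27 of histone H3 to H3K27me3, and PRC1 binds that mark. H3K27ac, found at active promoters and enhancers, sits on the same lysine, so a histone tail cannot carry both there. H3K4me1 is typical of enhancers and of poised promoters, and ATAC-seq measures how open the DNA is.

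Peak numbers per library ran from 15085 for H3K27me3 in WT replicate 1 to 72790 for H3K4me1 in Tcf4 cKO replicate 1. The Tcf4-tag libraries had 28606 and 16834 peaks. No read counts were analysed here, so the depth behind a value is unknown. Marker promoters of several cell types were open in both WT libraries: 4 of 6 for oligodendrocyte precursors, 4 of 6 for astrocytes, 4 of 6 for interneurons, 2 of 4 for excitatory neurons, 3 of 5 for microglia, 3 of 5 for endothelial cells and 2 of 4 for mural cells and fibroblasts, against 62.9% of all promoters. H3K27ac was in both WT libraries at 1 of 6, 3 of 6, 0 of 6, 0 of 4, 0 of 5, 1 of 5 and 0 of 4 in the same order, against 50.2% of all promoters. The open counts were near the share of all promoters and the H3K27ac counts at or below it, so these peaks do not tell which cell types were in the sort.

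H3K27me3 lay over 32.1% to 50.2% of each Hox cluster in every library, as a row of separate peaks, and over the 4 clusters together the genotypes overlapped. Peaks covered 36.5% and 41.5% of the windows in the WT libraries and 37.4% and 35.4% in the Tcf4 cKO libraries, while they covered 0.775% to 0.912% of the genome in the same libraries. The WT mean was 39.0% ± 3.55 and the Tcf4 cKO mean 36.4% ± 1.38 (SD, n = 2 each). The difference of -2.56 percentage points was smaller than the WT spread (exact two-sided permutation test, p = 0.667, where 0.333 is the smallest p that this design allows). Relative to the genome-wide share of each library the cover was 47.7-fold in WT and 43.0-fold in Tcf4 cKO, and on that scale the genotypes did not overlap (exact permutation p = 0.333).

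**Figure D1:**
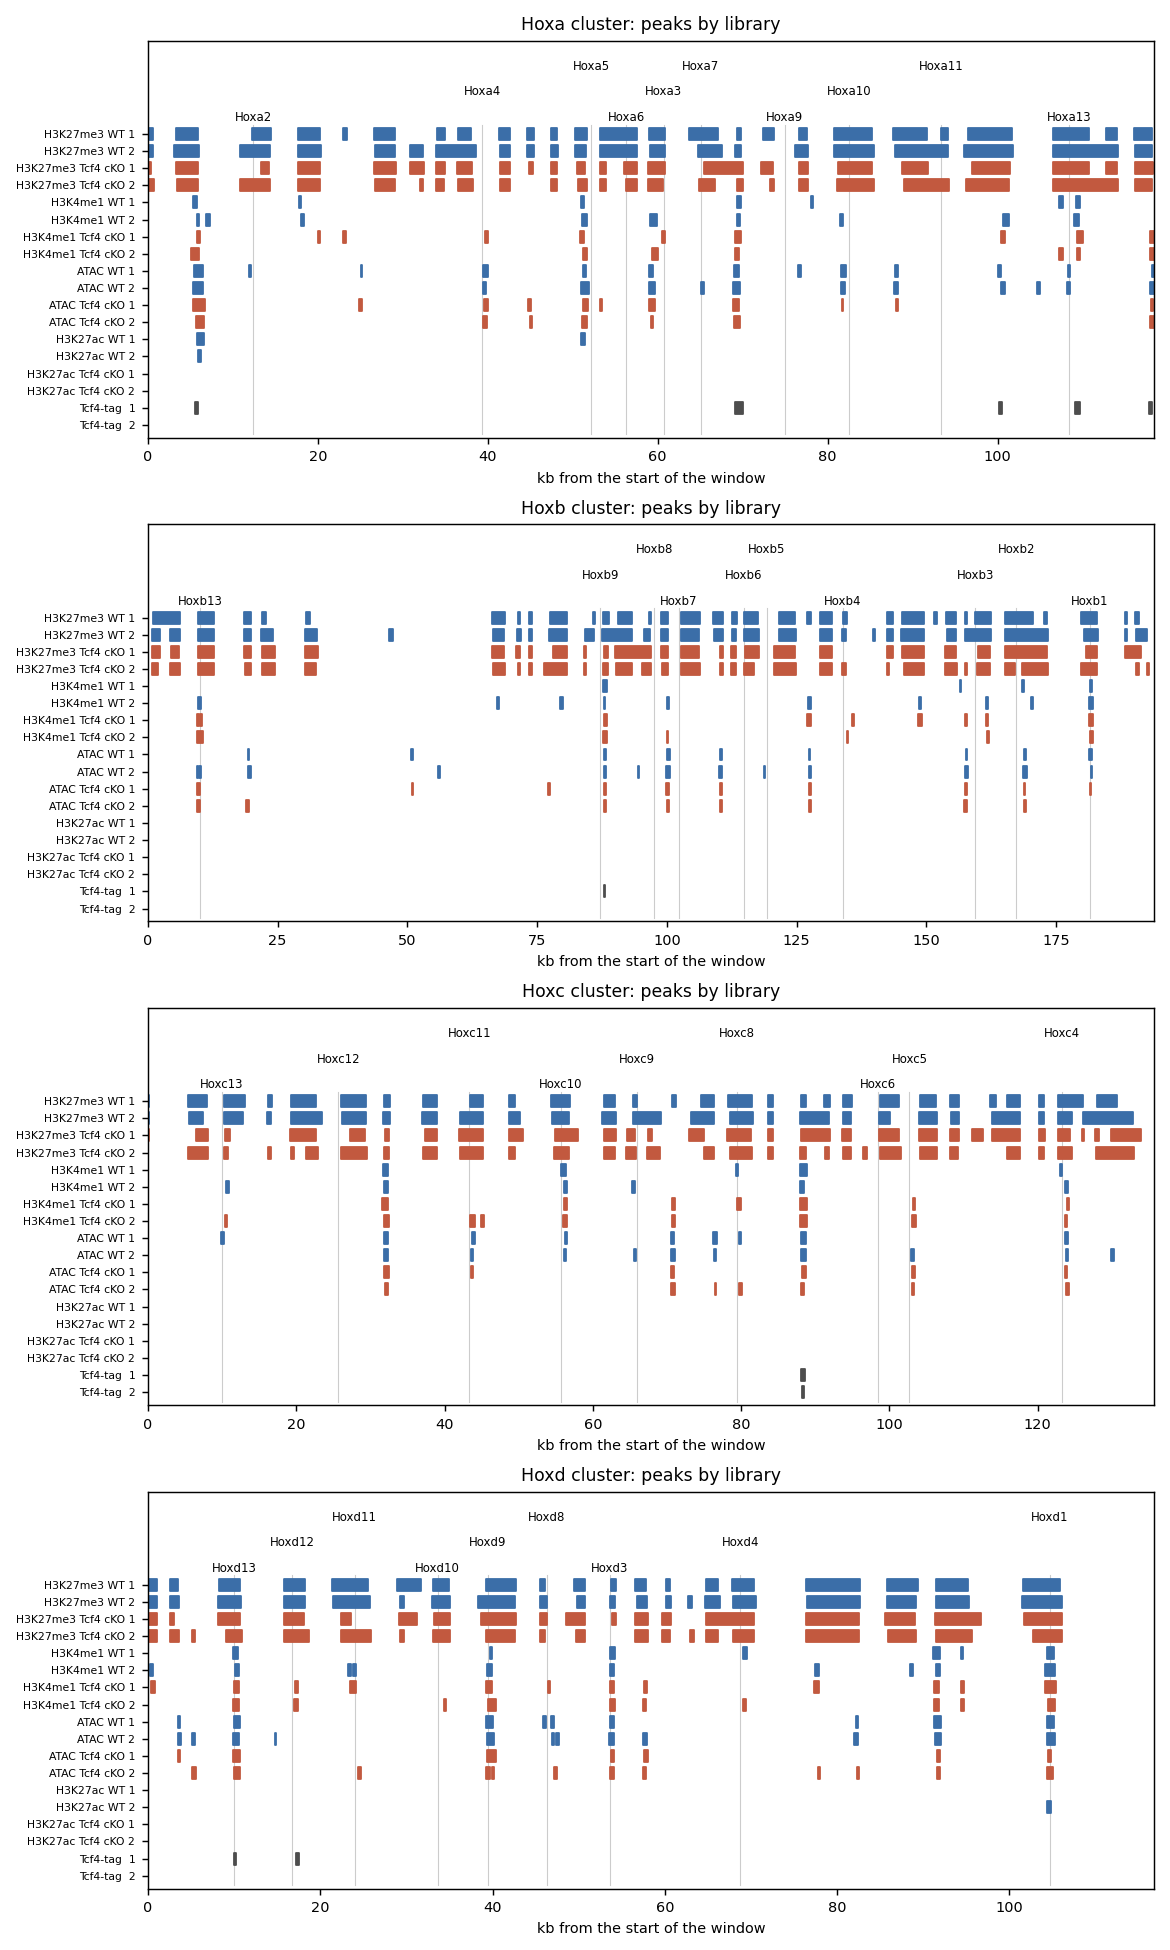
Peaks in the Hoxa, Hoxb, Hoxc and Hoxd windows, 1 row per library, with distance in kb from the start of the window on the x axis. Blue boxes are WT peaks, red boxes Tcf4 cKO peaks and grey boxes Tcf4-tag peaks, and each vertical line is the start site of the Hox gene named above it. H3K27me3 boxes run along all 4 clusters in all 4 libraries, H3K4me1 and ATAC boxes are narrow and few, and H3K27ac boxes appear in WT rows only.

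Hoxa was the most densely covered cluster in 3 of 4 libraries, with 43.9% and 50.2% in WT and 39.7% and 41.8% in Tcf4 cKO, so that both Tcf4 cKO libraries lay below both WT libraries (exact permutation p = 0.333, the smallest possible). Hoxc was covered for 34.6% and 42.8% in WT and 37.8% and 33.9% in Tcf4 cKO. Hoxd was covered for 38.4% and 38.7% in WT and 39.8% and 35.8% in Tcf4 cKO, and came just above Hoxa in Tcf4 cKO replicate 1. In Hoxc and Hoxd the genotypes overlapped. Hoxb had the lowest share in WT, 32.1% and 36.9%, with 34.2% and 32.4% in Tcf4 cKO. The sparsest stretch of Hoxb was the 74009 bp between Hoxb13 and Hoxb9, where cover was 14.3% and 21.03% in WT and 17.9% and 19.6% in Tcf4 cKO, against 42.5% to 48.5% over the 96800 bp from Hoxb9 to Hoxb1. The flanks of 10 kb outside the outermost members were themselves covered for 31.5% to 38.02%. Among 27247 bins of 100 kb across the genome, between 1 and 8 were covered at least as densely as a given Hox cluster, depending on library and cluster. The bins in the Hox clusters themselves were not left out, and each window was longer than a bin.

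The H3K27me3 peaks of the clusters were wide and shallow. Their median width was 1737 and 2162 bp in WT and 1928 and 1724 bp in Tcf4 cKO, against 949 to 996 bp for the other H3K27me3 peaks, and the widest reached 8331 bp. Their median fold enrichment was 1.46 and 1.42 in WT and 1.54 and 1.46 in Tcf4 cKO, against 2.46 to 2.52 elsewhere, which put the Hox median at the 1.88 to 2.52 percentile of each library's peaks. Their median -log10 q was 3.21 to 3.97, above the 2.054 to 2.211 of the other peaks. The fold enrichment is that of MACS2, over the local background of the same library. The methods name no control library, and without one the background of a peak inside a wide marked domain is itself marked sequence, so folds inside a cluster and at isolated peaks are not on the same footing. The number of peaks in the windows, 105 and 97 in WT and 97 and 104 in Tcf4 cKO, overlapped between the genotypes.

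Nearly every Hox promoter carried H3K27me3. Taking 1 kb on each side of the start site of the principal transcript, 34 of 38 promoters overlapped a peak in each of the WT libraries, where 14.8% of all promoters did, and 30 of 38 did in both Tcf4 cKO libraries, where 14.9% of all did. All 30 were among the 34. No peak was counted for more than 1 member in a library. The fold given for a promoter, here and in the limma fits, is that of the whole overlapping peak, which can lie mostly outside the promoter. Hoxa3 and Hoxd3 are read at the distal start of their long principal transcripts, which lie upstream of neighbouring Hox genes.

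The 4 highest mean fold enrichments were at Hoxd12, Hoxb1, Hoxd1 and Hoxd13, which lie at a cluster end or next to one. At Hoxd12, a limb and genital patterning gene, the values were 1.80 and 1.75 in WT and 1.85 and 1.89 in Tcf4 cKO. Hoxb1, which gives identity to the hindbrain segment of the facial nerve, had 1.86 and 1.74 in WT and 1.88 and 1.77 in Tcf4 cKO. Hoxd1 had 1.81 and 1.73 in WT and 1.83 and 1.76 in Tcf4 cKO, and its whole promoter lay under the peak in all 4 libraries. Hoxd12 was the member of this group whose Tcf4 cKO values both exceeded its WT values. Hoxd13, needed for the digits, went the other way with 1.83 and 1.79 in WT and 1.77 and 1.72 in Tcf4 cKO. The means of these 4 genes, 1.78 to 1.82, differed by less than the spread between libraries, and the next in order was Hoxd10 at 1.67.

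**Figure D2:**
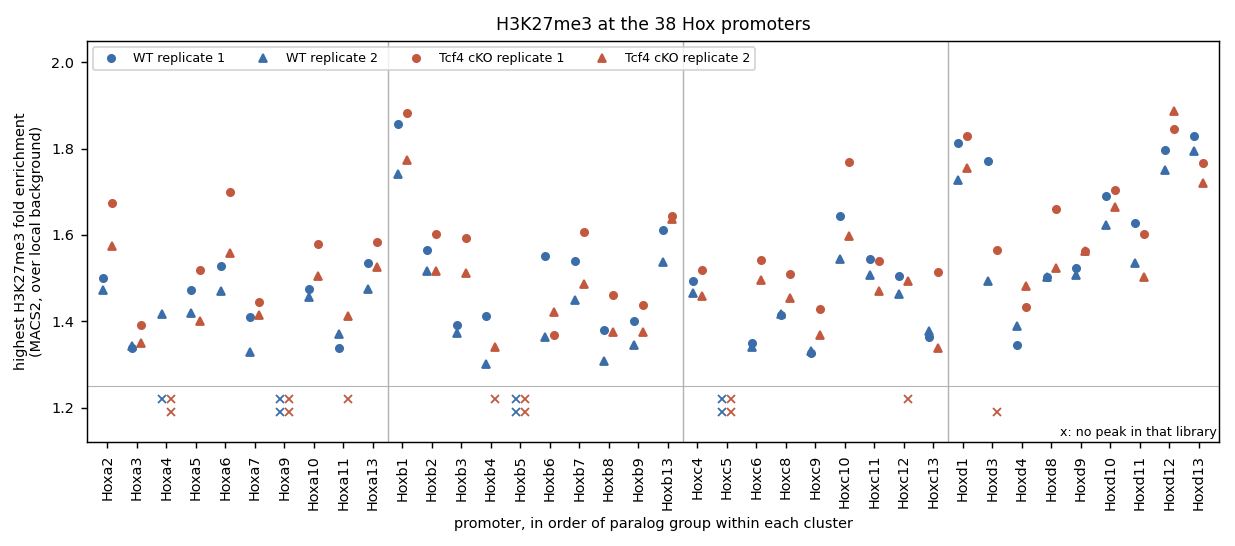
Highest MACS2 fold over local background (y axis) of an H3K27me3 peak overlapping the 1 kb on each side of the start site, for the 38 Hox promoters (x axis). Each value is that of the whole peak. Circles are replicate 1 and triangles replicate 2, with WT in blue and Tcf4 cKO in red. A cross marks a library without a peak there. Most promoters sit between 1.3 and 1.7, Hoxb1, Hoxd1, Hoxd12 and Hoxd13 sit above 1.7, and Hoxa9, Hoxb5 and Hoxc5 have crosses for all 4 libraries.

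At the ends of the clusters the values were less alike than in Hoxd. Hoxa2, the sole Hox gene of the second hindbrain segment, had 1.4997 and 1.472 in WT and 1.67 and 1.57 in Tcf4 cKO. Its promoter was covered for 58.9% and 100% in WT, but for 4.15% and 100% in Tcf4 cKO. The 1.67 of Tcf4 cKO replicate 1 was thus the fold of a peak that lay mostly outside the promoter. At the other end of Hoxa, Hoxa13, a limb and hindgut gene, had 1.54 and 1.48 in WT and 1.58 and 1.53 in Tcf4 cKO and was fully covered throughout. Hoxa2 thus shifted in cover from library to library and Hoxa13 did not. Hoxb13, the posterior end of Hoxb, had 1.61 and 1.54 in WT and 1.64 and 1.64 in Tcf4 cKO. Hoxc13, a hair follicle gene, had 1.36 and 1.38 in WT and 1.51 and 1.34 in Tcf4 cKO, and Hoxc4, at the anterior end of the same cluster, had 1.49 and 1.47 in WT and 1.52 and 1.46 in Tcf4 cKO. In both genes the genotypes overlapped, whereas those of Hoxb13 and Hoxa2 did not.

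Promoters of the same cluster differed among themselves. In Hoxa the highest mean was that of Hoxa6, with 1.53 and 1.47 in WT and 1.70 and 1.56 in Tcf4 cKO, and the lowest was Hoxa3 with 1.34 and 1.34 in WT and 1.39 and 1.35 in Tcf4 cKO. In Hoxb the lowest was Hoxb8, with 1.38 and 1.31 in WT and 1.46 and 1.37 in Tcf4 cKO. Hoxc ran from Hoxc10, a lumbar motor neuron gene, with 1.64 and 1.54 in WT and 1.77 and 1.60 in Tcf4 cKO, to Hoxc9, a thoracic motor neuron gene, with 1.33 and 1.33 in WT and 1.43 and 1.37 in Tcf4 cKO. In these 5 genes the order of the means was Hoxc10, Hoxa6, Hoxb8, Hoxc9 and Hoxa3, and the last 3 overlapped with each other. The lowest of Hoxd was Hoxd4, with 1.34 and 1.39 in WT and 1.43 and 1.48 in Tcf4 cKO. The median over the 30 members with a peak in all 4 libraries was 1.52, against 2.60 over all 2403 such promoters. By paralog group the medians were 1.52 for groups 1 to 4 (8 members), 1.45 for groups 5 to 8 (9 members) and 1.54 for groups 9 to 13 (13 members), with ranges that overlapped.

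The 8 remaining members lacked a peak in at least 1 library. Hoxa9, a blood progenitor gene, Hoxb5 and Hoxc5 had none in any library, although a peak lay 1.24 to 1.37 kb from the start of Hoxa9, 1.38 to 1.59 kb from that of Hoxb5 and 1.11 to 1.37 kb from that of Hoxc5. They therefore fell between peaks of a covered cluster rather than outside it. Hoxa4 had a peak in WT replicate 2 with a fold of 1.42, and in the other libraries the nearest lay 1.11 to 1.30 kb away. Hoxa11, a forelimb and kidney gene, had 1.34 and 1.37 in WT, no peak in Tcf4 cKO replicate 1 and 1.41 in replicate 2. Hoxb4 followed the same pattern with 1.41 and 1.30 in WT and 1.34 in Tcf4 cKO replicate 2, as did Hoxc12 with 1.51 and 1.46 in WT and 1.49 in Tcf4 cKO replicate 2. These 3 losses all fell in Tcf4 cKO replicate 1, the H3K27me3 library with the most peaks over the genome, 19182. Hoxd3 had 1.77 and 1.49 in WT and 1.57 in Tcf4 cKO replicate 1, with no peak in replicate 2. With 2 kb on each side of the start, 38 of 38 promoters were marked in both WT libraries, against 16.1% of all promoters. In both Tcf4 cKO libraries 36 of 38 were, against 16.5%.

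The 100 bases before the start sites of the 3 members with the highest mean fold and of Hoxa9 and Hoxc5, which had no peak in any library, are printed here from GRCm38 (mm10), with each CG dinucleotide in capitals, because CG-dense promoters are where H3K27me3 is usually found. Each is written 5′ to 3′ in the direction of the gene.
Hoxd12, chr2:74674913-74675012, plus strand: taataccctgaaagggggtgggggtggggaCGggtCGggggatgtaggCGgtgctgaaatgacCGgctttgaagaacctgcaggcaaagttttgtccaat
Hoxb1, chr11:96365652-96365751, plus strand: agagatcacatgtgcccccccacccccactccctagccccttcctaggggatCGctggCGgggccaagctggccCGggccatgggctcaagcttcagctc
Hoxd1, chr2:74762880-74762979, plus strand: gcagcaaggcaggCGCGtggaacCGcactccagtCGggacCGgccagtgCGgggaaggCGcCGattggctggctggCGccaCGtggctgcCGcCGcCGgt
Hoxa9, chr6:52227371-52227470, minus strand: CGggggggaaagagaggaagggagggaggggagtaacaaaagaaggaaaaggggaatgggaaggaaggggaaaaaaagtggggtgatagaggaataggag
Hoxc5, chr15:103013715-103013814, plus strand: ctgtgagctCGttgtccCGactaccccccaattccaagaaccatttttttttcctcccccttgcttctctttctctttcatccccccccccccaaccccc

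Hoxd1 held 13 CG dinucleotides in this stretch, Hoxd12 4, Hoxb1 3, Hoxc5 2 and Hoxa9 1. Of all promoters, 12.6% held at least as many as Hoxd1, 62.2% as many as Hoxb1 and 83.6% as many as Hoxa9. The median was 5.5 over the 38 members and 5 over all promoters, so that of the 5 printed Hoxd1 alone lay above these medians. Over the full 2 kb window the ratio of observed to expected CG had a median of 0.608 in the members, 0.481 over all promoters and 0.611 over the other 3204 promoters with H3K27me3 in both WT libraries. The Hox promoters thus had about the same CG ratio as other H3K27me3 promoters. In tiles of 1 kb across the windows, the ratio had a median of 0.402 in the 151 tiles at least 50% covered by H3K27me3 in all 4 libraries and of 0.236 in the 194 tiles not covered in any.

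Around the start site H3K27me3 was spread more broadly over Hox genes than over other H3K27me3 genes, a description with no test. In the 500 bp after the start site the mean cover over the 38 Hox genes was 63.8% and 71.5% in WT and 51.1% and 58.5% in Tcf4 cKO, against 78.8% to 80.6% over the other 2373 promoters with the mark in all 4 libraries. The Hox maximum lay further into the gene, at 500 to 1000 bp, with 71.3% and 76.8% in WT and 57.7% and 67.2% in Tcf4 cKO. Away from the start site the order turned. Between 4.5 and 5 kb upstream Hox cover was still 33.6% to 38.9%, against 3.43% to 4.01% for the others, and between 4.5 and 5 kb downstream 20.04% to 28.37% against 4.87% to 5.20%. Hox genes were compared with a set that has a peak in every library by its definition, which the 38 Hox genes do not.

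**Figure D3:**
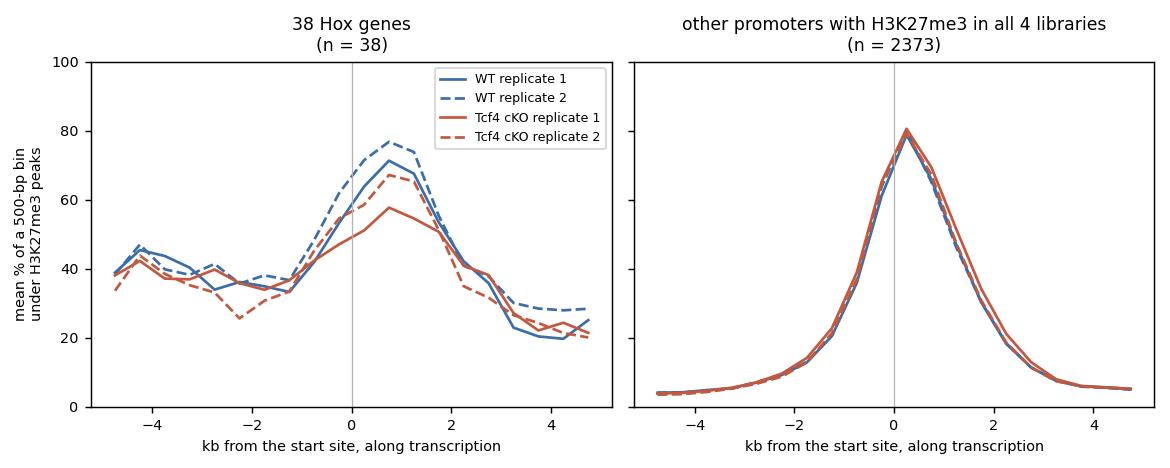
Mean share of each 500 bp bin under H3K27me3 peaks (y axis, percent) by distance from the start site along transcription (x axis, kb), for the 38 Hox genes (left) and for the other 2373 promoters with H3K27me3 in all 4 libraries (right), 1 line per library. The Hox lines stay above 20% out to 5 kb upstream and the WT lines lie above the Tcf4 cKO lines over the first 1.5 kb of the gene, while the 4 lines on the right run together.

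Both Tcf4 cKO libraries had a smaller mean cover of the Hox promoters than both WT libraries, which is given as a description with no test. The mean over the 38 promoters was 57.6% and 64.6% in WT and 49.5% and 56.4% in Tcf4 cKO, or 61.1% ± 4.98 against 52.9% ± 4.83 (SD, n = 2 each). The lowest WT library exceeded the highest Tcf4 cKO library by less than 1 SD. The other 2373 promoters had means of 60.4% and 61.4% in WT and 63.5% and 61.9% in Tcf4 cKO. They have a peak in every library by definition and so cannot lose one. The 38 Hox promoters include 4 and 3 with no cover in WT and 7 and 5 in Tcf4 cKO. The sets therefore do not tell whether the smaller cover was particular to Hox promoters. The number of Hox promoters covered over at least 99% of their length was 11 and 13 in WT and 7 and 8 in Tcf4 cKO. Hoxa6 was fully covered in both WT libraries and for 65.8% and 54.3% in Tcf4 cKO. Hoxb3 was covered for 58.0% and 100% in WT and for 28.4% and 32.9% in Tcf4 cKO. Hoxc11, named after its values were seen, went the other way. It was covered for 41.2% and 100% in WT and for 100% in both Tcf4 cKO libraries. Hoxa13 and Hoxd1 were fully covered in all 4 libraries.

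No Hox promoter changed in H3K27me3 fold enrichment between the genotypes by limma with Benjamini-Hochberg adjustment over the 2403 promoters with a peak in all 4 libraries. Of the 30 members tested 0 passed in either direction, where 0.333% of all promoters were called higher and 0.0832% lower in Tcf4 cKO. At an unadjusted p under 0.05, 13 of the 30 were higher and 0 lower, against 8.86% and 4.37% of all promoters. The log2 difference between Tcf4 cKO and WT was above 0 for 28 members and below 0 for Hoxb6 and Hoxd13, with a median of 0.08 over the members and 0.01 over all promoters. On values centred by library the genotypes did not overlap for 23 members higher and 1 lower in Tcf4 cKO, where 26.6% of all promoters were higher and 17.7% lower without overlap. On the values as deposited this held for 14 higher and 1 lower, where 18.4% of all promoters were higher and 26.1% lower. With quantile normalization in place of centring the split was 22 above and 8 below 0, with a median of 0.03, and 4 of 30 members had an unadjusted p under 0.05, near the 12.4% of all promoters. With no centring it was 26 above and 4 below, and 5 of 30 members had such a p, against 12.1% of all promoters.

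The lowest adjusted p-values were at Hoxc6 and Hoxb3, which are named here after their values were seen. Hoxc6, a gene of forelimb-level motor neurons, had folds of 1.35 and 1.34 in WT and 1.54 and 1.496 in Tcf4 cKO, a log2 difference of 0.20 (SE 0.035, limma adjusted p = 0.0589). Hoxb3 had 1.39 and 1.37 in WT and 1.59 and 1.51 in Tcf4 cKO, a log2 difference of 0.19 (SE 0.037, limma adjusted p = 0.0709). In both genes the values of the 2 Tcf4 cKO libraries lay above both WT values. A choice by the lowest p favours this, so it adds no support. Over the alternative settings the limma adjusted p of Hoxc6 ran from 0.0057 with the replicate number as a block to 0.99997 with promoters that have a peak in any library. It was 0.0082 without Tcf4 cKO replicate 2, where Hoxa2, Hoxa6, Hoxb3 and Hoxc13 were called too, but 0.395 without WT replicate 1 and 0.322 without WT replicate 2. Read at the 5′ end of the gene, the log2 difference of Hoxc6 was 0.07 (limma adjusted p = 0.365). The adjusted p of Hoxb3 ran from 0.0068 without Tcf4 cKO replicate 2 to 0.999 with a peak in any library. At Hoxb3 the higher fold went with a promoter covered over less of its length.

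H3K27ac was all but missing from the Hox clusters. In neither genotype did any Hox promoter have a peak in both its libraries, where 50.2% of all promoters did in WT and 47.2% in Tcf4 cKO. The windows were covered for 0.217% and 0.158% in WT and for 0% and 0% in Tcf4 cKO, against 0.517% to 0.708% of the genome (exact permutation p = 0.333, the smallest possible). Each WT library had 2 peaks in the windows and each Tcf4 cKO library had 0.

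Of these, 2 lay at a Hox promoter. In WT replicate 1 a peak with a fold of 4.66 at chr6:52203424-52203821 overlapped an exon of Hoxa5, a gene of the cervical cord and the lung, with its summit 930 bp past the start site. In WT replicate 2 a peak with a fold of 3.62 at chr2:74762692-74763161 overlapped the start of Hoxd1. Neither was seen in the other WT library, and both stretches carried H3K27me3 in all 4 libraries. The other 2 peaks, 1 in each WT library, overlapped each other in a flank outside every member gene. They made up the 1 H3K27ac region of the windows that was shared by both WT libraries, and in Tcf4 cKO there were 0. No member had a peak in all 4 libraries, so that limma tested 0 members for H3K27ac.

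H3K4me1 was found at 10 of 38 Hox promoters in both WT libraries, where 26.3% of all promoters had it, and at 14 of 38 in both Tcf4 cKO libraries, where 41.6% of all did. The 10 WT promoters were Hoxa5, Hoxa13, Hoxb1, Hoxb9, Hoxc4, Hoxc10, Hoxd1, Hoxd3, Hoxd9 and Hoxd13. All of them kept it in Tcf4 cKO, where Hoxa3, Hoxb13, Hoxc5 and Hoxd12 met the criterion too. Hoxa3 and Hoxb13 already had a peak in WT replicate 2, and Hoxc5 and Hoxd12 had none in either WT library. The Hox share was thus that of all promoters in WT and a little under it in Tcf4 cKO, the genotype with more H3K4me1 peaks over the genome. Cover of the windows was 2.01% and 2.92% in WT and 3.41% and 3.13% in Tcf4 cKO, a difference of 0.81 percentage points (exact permutation p = 0.333). It was 0.35 without WT replicate 1 and 1.27 without WT replicate 2. As a ratio to the genome-wide share of each library, the cover was 2.22 in both genotypes.

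At the promoters with the mark in all 4 libraries no difference in H3K4me1 passed the test. Limma tested 10 members among 5276 promoters and called 0, with 1 at an unadjusted p under 0.05, where 6.1% of all promoters had such a p in either direction. That gene was Hoxc10, named after its values were seen, with folds of 4.38 and 4.23 in WT and 3.55 and 3.16 in Tcf4 cKO, a log2 difference of -0.37 (SE 0.17, limma adjusted p = 0.794). Hoxb1 had folds of 4.81 and 5.35 in WT and 4.88 and 5.05 in Tcf4 cKO. Hoxd13 had 5.19 and 4.88 in WT and 4.52 and 4.47 in Tcf4 cKO. Hox H3K4me1 peaks were of ordinary strength, with their median fold at the 43.6 to 53.2 percentile of each library.

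**Figure D4:**
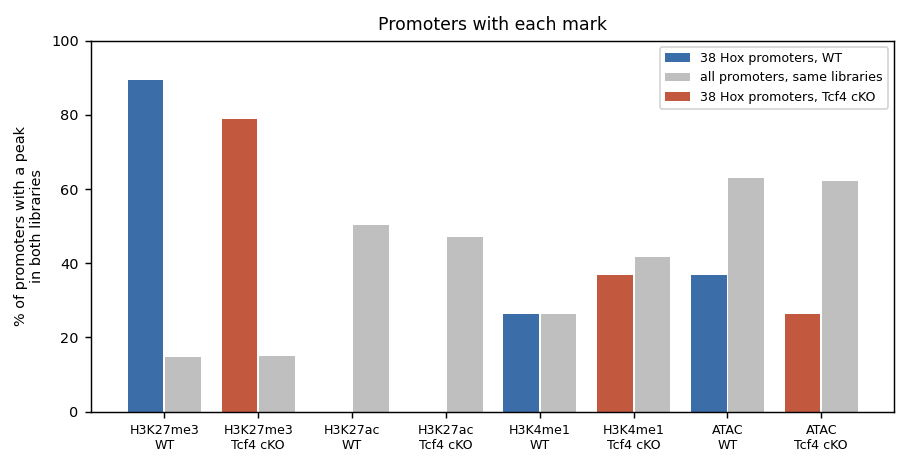
Share of promoters (y axis, percent) that overlap a peak in each of the 2 libraries of the genotype, for H3K27me3, H3K27ac, H3K4me1 and ATAC in WT and Tcf4 cKO (x axis). Blue and red bars are the 38 Hox promoters in WT and Tcf4 cKO, and grey bars are all 21829 promoters in the same libraries. Hox promoters exceed all promoters for H3K27me3, have no bar for H3K27ac, and fall below all promoters for ATAC.

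Open chromatin was found at 14 of 38 Hox promoters in both WT libraries and at 10 of 38 in both Tcf4 cKO libraries, below the 62.9% and 62.1% of all promoters. Hoxa4, Hoxa5, Hoxb9, Hoxc4, Hoxd1, Hoxd3, Hoxd9 and Hoxd13 were open in both genotypes. Hoxa10, Hoxa13, Hoxb1, Hoxc10, Hoxc11 and Hoxd8 met the criterion in WT only and Hoxb13 and Hoxc5 in Tcf4 cKO only. Among the 6, Hoxa13 and Hoxc10 had no ATAC peak in either Tcf4 cKO library, and the other 4 had one in 1 of the 2. Hoxa13 had folds of 2.80 and 3.70 in WT. Hoxb13 and Hoxc5 each had a peak in 1 WT library, so that each of the 10 promoters open in Tcf4 cKO had a peak in at least 1 WT library.

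ATAC cover of the windows was 3.08% and 3.96% in WT and 2.74% and 2.61% in Tcf4 cKO, with 40 and 47 peaks against 34 and 35. Neither measure overlapped between the genotypes (a difference of -0.85 percentage points, exact permutation p = 0.333, the smallest possible). The difference was -1.29 without WT replicate 1 and -0.41 without WT replicate 2. Relative to the genome-wide cover the ratio was 2.27 in WT and 1.87 in Tcf4 cKO. The peaks were weak, with a median fold at the 17.7 to 27.9 percentile of each library. Hoxa was the most open cluster in WT, 4.75% and 5.82%, with 4.58% and 3.19% in Tcf4 cKO. Hoxb and Hoxc were the least open, Hoxb with 1.60% and 2.87% in WT and 2.06% and 1.99% in Tcf4 cKO, and Hoxc with 2.79% and 2.83% in WT and 1.83% and 1.82% in Tcf4 cKO.

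Limma tested 8 Hox promoters for ATAC among 13386 and called 0, with 3 at an unadjusted p under 0.05 against 7.72% of all promoters in either direction. These 3 are named after their values were seen. Hoxb9 had folds of 4.03 and 3.95 in WT and 5.49 and 5.38 in Tcf4 cKO (log2 difference 0.52, SE 0.13, limma adjusted p = 0.418). Hoxd3 had the opposite sign, with 6.45 and 5.43 in WT and 3.23 and 4.37 in Tcf4 cKO (log2 difference -0.59, SE 0.17, limma adjusted p = 0.471). Hoxd1 had 6.21 and 5.61 in WT and 6.80 and 7.09 in Tcf4 cKO (log2 difference 0.30, SE 0.13, limma adjusted p = 0.614). Hoxb9 and Hoxd1 were higher and Hoxd3 lower in Tcf4 cKO. The genotypes did not overlap in these genes, which a choice by low p favours, so this adds no support.

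Most open Hox promoters also carried H3K27me3. Of the 14 open in WT, 13 had H3K27me3 in both WT libraries and Hoxa4 was the exception, whereas over all genes 2839 of 13735 open promoters did. Of the 10 open in Tcf4 cKO, 7 had H3K27me3 in both Tcf4 cKO libraries and Hoxa4, Hoxc5 and Hoxd3 did not, with 2732 of 13551 over all genes. Among all Hox promoters, open or not, 34 of 38 had the mark in WT and 30 of 38 in Tcf4 cKO. The counts of the open ones were near these shares, so they show no trait of open Hox promoters. In the windows 71.9% and 70.1% of the bases in ATAC peaks lay under H3K27me3 in WT and 65.4% and 68.2% in Tcf4 cKO, with libraries of the same number set together, while H3K27me3 covered 35.4% to 41.5% of the windows. Hoxa5, Hoxb9, Hoxc4, Hoxd1, Hoxd9 and Hoxd13 carried H3K27me3, H3K4me1 and an ATAC peak in all 4 libraries of each assay. Over all promoters 1248, or 5.72%, did so. Open chromatin and both marks came from separate libraries of sorted cells, so whether they shared a cell was not tested.

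The 7 consensus ATAC regions assigned to Hox genes had authors' mean values, in log2 normalized reads with no value per library, that were mostly low. The highest was that of Hoxc4, at chr15:103085700-103086930, with a mean of 7.70 in WT and 7.25 in Tcf4 cKO. This region lay in intergenic DNA 51.9 kb from the Hoxc4 start site, outside the window, and carried H3K27ac in all 4 libraries, which no other Hox region did. The region of Hoxa7, chr6:52221299-52222148, had means of 6.87 and 6.82 and lay at the 5′ end of the longest gene model of Hoxa7, 4.22 kb from the principal start. The region of Hoxa3, chr6:52211352-52212139, in a Hoxa3 intron 1.37 kb past the start, had 6.48 and 6.41. The Hoxa7 and Hoxa3 regions lay inside the Hoxa window, and H3K27me3 overlapped each of them in all 4 libraries.

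The region of Hoxd1, chr2:74762661-74763319, spanned the start site and had means of 6.10 in WT and 5.95 in Tcf4 cKO. That of Hoxb8, chr11:96284165-96284957, was annotated to the 3′ UTR and had 5.78 and 5.65. The regions of Hoxb4, chr11:96311623-96312071, in intergenic DNA 6.42 kb from the start, and Hoxb9, chr11:96272139-96272581, in a Hoxb9 intron 0.903 kb past the start, had 5.35 and 5.06 in WT and 5.74 and 5.40 in Tcf4 cKO. Those of Hoxb4 and Hoxb9 were the 2 that were higher in Tcf4 cKO. No difference exceeded 0.5 in size, which 8.38% of all regions did upward and 12.6% downward. The median difference was -0.07 over the 7 regions and -0.10 over all regions. The WT means stood at the 4.33 to 63.6 percentile of all regions.

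Tcf4 occupancy of the Hox clusters differed between the Tcf4-tag libraries. No Hox promoter had a Tcf4-tag peak in both libraries, where 35.6% of all promoters did. The windows held 9 peaks in replicate 1 and 1 in replicate 2, and were covered for 0.724% and 0.0575% against 0.666% and 0.339% of the genome. Of the 9 peaks 5 lay in Hoxa, 1 in Hoxb, 1 in Hoxc and 2 in Hoxd. The promoters of Hoxa13 (fold 3.42), Hoxb9 (4.06), Hoxd12 (4.46) and Hoxd13 (4.21) each had a peak in replicate 1 and none in replicate 2. These are weak peaks, from the 8.60 to the 40.7 percentile of that library. All 10 peaks overlapped H3K27me3 in all 4 libraries.

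In both Tcf4-tag libraries 1 region was found, chr15:102999232-102999683, in an intron shared by the Hoxc5 and Hoxc6 gene models, 8.91 kb past the start of Hoxc8. Its folds were 3.64 and 3.90, and H3K27me3, H3K4me1 and ATAC peaks overlapped it in all 4 libraries of each assay, with no H3K27ac in any. The bases around its summit in replicate 1 are given from GRCm38, plus strand, with CG in capitals, as the single reproducible Tcf4 stretch of the clusters.
Hoxc region, chr15:102999466-102999566: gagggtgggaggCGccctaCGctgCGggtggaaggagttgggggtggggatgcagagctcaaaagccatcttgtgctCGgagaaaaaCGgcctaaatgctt
Neither this stretch nor the 75 bp on each side of either summit held CANNTG, the E-box core that Tcf4 binds as a bHLH protein and that reads the same on both strands. CANNTG was within 75 bp of 3 of the 9 Hox summits of replicate 1, and of 49.2% of all 28602 summits. CAGCTG, a form of CANNTG, was at 1 of 9 and at 14.2% of all.

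The clusters also hold microRNA genes, whose mature sequences are given from RefSeq (GRCm38.p6) with the seed, bases 2 to 8, in capitals, since the paralogous clusters share seeds.
mmu-miR-10a-5p, Hoxb, chr11:96317186-96317208: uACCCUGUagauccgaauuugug
mmu-miR-10b-5p, Hoxd, chr2:74726074-74726096: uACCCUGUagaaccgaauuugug
mmu-miR-196a-5p, Hoxb and Hoxc, chr11:96265187-96265208 and chr15:102973365-102973386: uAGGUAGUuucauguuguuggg
mmu-miR-196b-5p, Hoxa, chr6:52230129-52230150: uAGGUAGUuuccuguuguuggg
The seed ACCCUGU belongs to miR-10a and miR-10b and the seed AGGUAGU to the miR-196 genes, which target Hox transcripts. H3K27me3 peaks overlapped the Mir196a-2 hairpin in all 4 libraries and the Mir10b hairpin in 1 WT and 1 Tcf4 cKO library. The hairpins of Mir10a, Mir196a-1 and Mir196b lay under no H3K27me3 peak. H3K27ac, H3K4me1 and ATAC peaks overlapped none of the 5 hairpins in any library.

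Lists of genes related to Hox genes in position or regulation were read against the 14.8% of all promoters with H3K27me3 in both WT libraries. The mark was at 11 of 13 promoters of ParaHox and neighbouring homeobox genes. Among them were Evx1 and Evx2 beside the Hoxa and Hoxd clusters, and Cdx1, Cdx2 and Cdx4, which activate Hox genes. H3K27me3 was at 7 of 9 hindbrain and spinal cord genes, including Egr2, which activates Hoxb2 in the hindbrain. It was also at 11 of 16 forebrain genes, among them Emx1 and Nkx2-1. The H3K27me3 of Hox genes was therefore shared by developmental genes of the forebrain itself. H3K27me3 was at 0 of 9 HOX cofactors (Pbx, Meis and Pknox genes). H3K27ac was at 6 of these 9 in both WT libraries, against 50.2% of all promoters. In both Tcf4 cKO libraries it was at 4 of 9, against 47.2%. In a list of 9 genes these cofactor counts were near the shares of all promoters.

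Most promoters of Polycomb genes, and of a mixed list of H3K27 demethylases and trithorax proteins, carried H3K27ac in WT, where 50.2% of all promoters did. It was at 6 of 6 PRC2 core promoters in both WT libraries, including the methyltransferase genes Ezh1 and Ezh2. It was also at 6 of 6 PRC2 accessory promoters, 11 of 19 PRC1 promoters and 9 of 10 promoters of the mixed list, which holds mostly trithorax genes. Of the demethylase genes in it, Kdm6a had H3K27ac in both WT libraries and Kdm6b did not. In both WT libraries H3K27me3 was at 1, 2, 6 and 0 promoters of these lists, against 14.8% of all promoters. The 1 in the PRC2 core was Ezh2. In both Tcf4 cKO libraries H3K27me3 was at 0, 1, 4 and 1, against 14.9% of all promoters. In Tcf4 cKO H3K27ac was at 5 of 6, 3 of 6, 10 of 19 and 8 of 10 of them, against 47.2% of all promoters. The H3K27ac counts of PRC1 in both genotypes, and of the PRC2 accessory list in Tcf4 cKO, were near the shares of all promoters. Limma called 0 of 4 PRC1 promoters, 0 of 10 ParaHox and neighbouring promoters and 0 of 6 hindbrain promoters for H3K27me3. For H3K27ac, H3K4me1 and ATAC limma called 0 promoters in every list and 0 of all 9799, 5276 and 13386 promoters tested, of which 666, 322 and 1033 had an unadjusted p under 0.05.

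The HOX motifs were read through TOBIAS footprint scores, 1 authors' mean per motif and genotype from the merged ATAC alignments, with no replicate value and so no test. The 49 motifs of 33 HOX genes had a median WT score of 0.193, below the 0.245 over all 1205 motifs. The difference between Tcf4 cKO and WT was above 0 for 26 and below 0 for 23, with a median of 0.00051 against -0.0005 over all motifs. It split by paralog group, a division made after the values were seen. In groups 1 to 8, 23 of 24 motifs were above 0, with a median of 0.0025, and the exception was Hoxd8 MA0910.1. In groups 9 to 13, 22 of 25 were below 0, with a median of -0.0012, and the exceptions were HOXC11 MA0651.2, HOXD13 MA0909.2 and Hoxd9 MA0913.1.

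**Figure D5:**
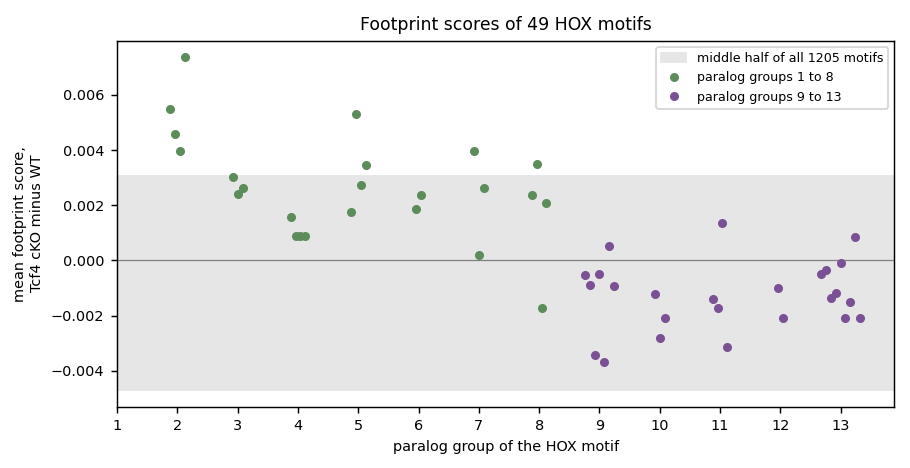
Difference in mean footprint score between Tcf4 cKO and WT (y axis) of 49 HOX motifs by paralog group (x axis), with groups 1 to 8 in green and 9 to 13 in purple and the middle 50% of all 1205 motifs shaded. Green points lie above 0 except 1, purple points below 0 except 3, and most points lie within the shaded band.

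The differences were small. The largest, of HOXB2 MA0902.2, was 0.00736, from 0.217 in WT to 0.224 in Tcf4 cKO, and the most negative, of HOXC9 MA0485.2, was -0.00368. The middle 50% of all motifs ran from -0.00469 to 0.00306. HOX motifs of neighbouring groups are alike and share sites: HOXB4, HOXC4 and HOXD4 had the same score of 0.178 in WT and 0.179 in Tcf4 cKO from the same number of sites, 11762. The 49 values are therefore not independent. Other homeodomain proteins bind these letters too, and the scores do not say which protein was there.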

How the data were processed

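Per the study's methods, the authors trimmed reads with Trim Galore, aligned them to mm10 with Bowtie 2, removed duplicates and called peaks in each library with MACS2, broad for H3K27me3 and narrow otherwise, with no control library named. ATAC reads were shifted and extended for peak calling. The deposited peak lists give the fold enrichment over local background, a linear ratio, and -log10 p and q values as MACS2 wrote them. For the consensus ATAC regions the authors deposited log2 mean normalized reads per genotype from DiffBind with ChIPseeker annotation, and for motifs a mean TOBIAS footprint score per genotype from merged alignments. Their fold changes, score changes and p-values between genotypes were not used. The files hold no read counts, so the depth of each library is unknown and only peak numbers are given. Coordinates were checked against chromosome lengths of mm10, with 54 peaks on other sequences left out.

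Samples were grouped by the genotype labels. The single-cell samples were not analysed here. Promoters reached 1000 bp on each side of the start of the principal transcript (GENCODE M21), and a promoter was marked when a peak overlapped it by at least 1 bp. Covered length was compared by an exact two-sided permutation test over libraries. The highest fold at promoters with a peak in all 4 libraries was put on the log2 scale, centred on the library median and tested with limma 3.58.1 (trend, Benjamini-Hochberg over all promoters, threshold 0.05) in R 4.3.3, a script tested on simulated data. Python 3.11.15, pandas 2.3.3, numpy 2.4.6 and pysam 0.24.0 did the rest. Sequences came from GRCm38 and RefSeq. Alternatives were a stricter peak threshold (-log10 q of at least 5), other windows and start sites, other scaling, a peak in any library, a replicate block and each library left out.

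All members were counted. Values per library were given for members past the threshold in any promoter fit, with H3K27ac in both libraries of a genotype, lacking H3K27me3 in a library, with a Tcf4-tag peak at the promoter, first or last in a cluster, or with the highest or lowest mean H3K27me3 fold in it, and for the 6 consensus ATAC regions highest in WT or any differing by over 0.5. The remaining region, that of Hoxb9, is given as well. Genes outside this rule are marked where named. The members and the lists (PRC2 core and accessory, PRC1, demethylases and trithorax, HOX cofactors, ParaHox and neighbours, hindbrain and spinal cord, forebrain, cell type markers) were chosen with earlier results of these data known. A result for H3K27me3 at the forebrain list, 1 promoter sequence and the regions without a member's symbol are not reported here.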

Additional observations from a re-analysis of the deposited data

How the results depend on the processing

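Of 135 alternative values for 19 comparisons, 111 kept their direction and stayed within the limits set for a change, and the other values are given here. The cause of each change was not tested. Some of the 111 could not differ, such as the cover differences with the replicate block and the H3K27ac cover without a Tcf4 cKO library. The count is therefore no measure of how robust the results are. As a ratio to the share of the genome covered, the H3K4me1 difference between Tcf4 cKO and WT turned to -0.00069 from 0.81 percentage points. Promoters called by limma for H3K27me3, 0 in the setting reported, were 1 with 500 bp and 1 with 2 kb on each side of the start site (Hoxc6 in both), and ranged from 0 to 5 with a library left out, the 5 without Tcf4 cKO replicate 2. In such a fit the lone library is assumed to vary like those of the other genotype, so its calls, among members or all promoters, are not read as a result. Over all promoters the fits with 500 bp and 2 kb called 12 of 2191 and 23 of 2662. With -log10 q of at least 5, Hox promoters marked in both libraries were 15 for H3K27me3, 1 for H3K4me1 and 6 for ATAC in WT. Of all promoters, 4.14%, 4.93% and 61.0% were. In Tcf4 cKO the Hox counts were 9, 3 and 4, against 3.87%, 13.8% and 59.9% of all promoters. Tcf4-tag regions in both libraries were 0 at that threshold. With at least 50% of the window covered the Hox counts were 20, 0 and 0 in WT and 15, 0 and 0 in Tcf4 cKO. No share of all promoters was taken for that setting or with 1 library left out. With 500 bp on each side H3K4me1 in Tcf4 cKO was at 9 Hox promoters, against 36.6% of all promoters. ATAC in WT was at 9 as well, against 61.4%. With 1 library left out, H3K27ac in WT was at 1 promoter whichever library was left out (Hoxa5 or Hoxd1), H3K4me1 in WT at 12 to 16, and Tcf4-tag regions were 1 to 9. The smaller H3K27me3 cover in Tcf4 cKO ranged from -5.07 to -0.05 percentage points with a library left out, the latter without WT replicate 2. It was -8.56 with the stricter peaks and -4.80 with peaks merged over gaps of up to 3 kb, a setting added after seeing the data. For H3K27ac the limma fit had no member to test, except with a peak in any library, where it called 0 of 2.

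The groups share replicate numbers, but the labels do not say that a number marks a shared litter, batch or day. Deviations of same-numbered libraries from their group means correlated by -0.024 for H3K27me3, 0.027 for H3K27ac, 0.019 for H3K4me1 and -0.044 for ATAC, so the libraries were not treated as pairs. With the replicate block, limma called 2 Hox promoters for H3K27me3, Hoxc6 (adjusted p = 0.0057) and Hoxb3 (adjusted p = 0.0086), and 0 for H3K4me1 and ATAC. Over all promoters the block called more too, 61 of 2403 for H3K27me3 against 10 without it. For H3K4me1 it called 0 of 5276 and for ATAC 2 of 13386. The blocked differences in cover were -2.56 for H3K27me3, -0.19 for H3K27ac, 0.81 for H3K4me1 and -0.85 percentage points for ATAC, and 0.5 is the smallest p that the paired exact test allows.

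Each genotype had 2 libraries per assay, and presence of a weak peak depends on a depth that the files do not give. A Hox promoter without a peak is therefore below the caller's threshold in that library rather than free of the mark.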
